A study of Mus musculus with 7 samples.

Results

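The regions described here are CEBPB ChIP-seq peaks that were listed in dermal fibroblasts both before and after thapsigargin and that carried no ATF4 peak. They were chosen from the peak lists alone: a CEBPB peak of treated cells was taken when it overlapped a CEBPB peak of untreated cells by at least 1 bp and overlapped no ATF4 peak of treated cells. Of 7861 CEBPB peaks in treated cells, 1536 overlapped at least 1 of the 7317 CEBPB peaks in untreated cells. After 100 of these that also overlapped 1 or more of the 10109 ATF4 peaks were set aside, 1436 remained (18.3% of the treated list), lying in 1431 untreated peaks (19.6% of the untreated list). They are called shared peaks from here on. The cells, primary fibroblasts taken from the dermis of female mice of the FVB/N strain, were kept in culture for 8 days and then harvested untreated or after 3 h of thapsigargin. The untreated state had 1 CEBPB ChIP-seq library, 1 RNA-seq library and 2 whole-genome bisulfite libraries that the authors combined. The treated state had 1 CEBPB ChIP-seq, 1 ATF4 ChIP-seq and 1 RNA-seq library. The sources used here give no age of the mice, no dose and no number of animals. Because each ChIP and RNA condition had 1 library, no difference between conditions was tested. The 95% intervals given below cover counting error over peaks or genes only, and peaks of 1 library are not replicates.

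CEBPB is a basic leucine zipper (bZIP) transcription factor that binds DNA as a dimer, at a palindromic site as a homodimer or with other C/EBP proteins. Thapsigargin empties the calcium store of the endoplasmic reticulum (ER) by inhibiting its pump, and the resulting ER stress activates the kinase PERK, which raises translation of another bZIP factor, ATF4. CEBPB and ATF4 can pair, and the heterodimer binds a composite site made of a C/EBP and an ATF element. In fibroblasts CEBPB is known for inflammatory gene expression and for early steps of adipocyte differentiation.

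Sequence was not used to choose the peaks. The words searched were the C/EBP word TTGCNNAA, where N is any base, and the C/EBP-ATF composite word TTGCATCA, each on both strands and within 100 bp of the peak centre. Of the 8 shared peaks with the highest score in the treated list, 6 held the composite word, 4 of them without a C/EBP word. None of the 5 with the highest score in the untreated list held the composite word, and all 5 held a C/EBP word. The following stretches of 80 bases from the mm9 reference genome, made from the strain C57BL/6J and not from FVB/N, show the composite word at 5 of those 6 peaks and upstream of Hspa5. Capitals mark each composite word and any C/EBP word in the stretch.
upstream of Wdr67, chr15:57738372-57738451, plus strand: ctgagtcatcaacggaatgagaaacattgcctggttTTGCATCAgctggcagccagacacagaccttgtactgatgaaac
intron of Ccdc109a, chr10:59027449-59027528, minus strand: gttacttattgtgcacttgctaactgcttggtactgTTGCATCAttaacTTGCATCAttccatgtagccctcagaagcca
upstream of Sesn2, chr4:132069989-132070068, plus strand: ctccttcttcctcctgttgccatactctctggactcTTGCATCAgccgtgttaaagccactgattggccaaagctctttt
intron of Runx2, chr17:44846954-44847033, plus strand: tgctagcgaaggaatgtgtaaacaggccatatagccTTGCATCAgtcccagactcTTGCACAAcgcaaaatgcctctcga
intron of Nfe2l1, chr11:96684046-96684125, plus strand: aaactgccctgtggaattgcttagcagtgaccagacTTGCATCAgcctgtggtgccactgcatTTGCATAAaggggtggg
upstream of Hspa5, chr2:34625693-34625772, minus strand: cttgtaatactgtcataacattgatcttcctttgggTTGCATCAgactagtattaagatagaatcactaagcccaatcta

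A second set shows C/EBP words, again in capitals, at shared peaks with high untreated scores or close to genes whose RNA rose most. The stretches in the intron of Htra1 and upstream of Ptgs2 hold the palindromic form TTGCGCAA, one of the forms of the word with a CpG at the centre.
upstream of Id3, chr4:135673135-135673214, plus strand: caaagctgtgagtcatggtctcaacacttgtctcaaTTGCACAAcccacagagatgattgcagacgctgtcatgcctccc
intron of Emilin2, chr17:71649835-71649914, minus strand: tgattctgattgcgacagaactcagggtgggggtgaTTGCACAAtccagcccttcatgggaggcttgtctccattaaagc
intron of Vmp1, chr11:86417416-86417495, plus strand: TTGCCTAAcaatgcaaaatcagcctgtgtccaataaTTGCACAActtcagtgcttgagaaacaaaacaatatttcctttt
intron of Htra1, chr7:138086912-138086991, plus strand: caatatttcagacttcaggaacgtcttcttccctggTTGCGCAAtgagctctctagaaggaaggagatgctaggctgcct
upstream of Ptgs2, chr1:151947056-151947135, plus strand: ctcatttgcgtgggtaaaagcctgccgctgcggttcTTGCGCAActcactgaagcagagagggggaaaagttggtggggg
upstream of Bdkrb1, chr12:106836391-106836470, plus strand: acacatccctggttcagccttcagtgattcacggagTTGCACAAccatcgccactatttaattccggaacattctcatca

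Among these, the composite words upstream of Sesn2, an ATF4 target that restrains the growth kinase mTORC1, and in the intron of Nfe2l1, a bZIP factor that drives proteasome genes, lay in peaks ranked far higher in the treated list than in the untreated list. The peak upstream of Sesn2 (chr4:132069821-132070101) was 3rd of the 1436 by treated score and 661st by untreated score. The Nfe2l1 peak (chr11:96683918-96684263) was 7th and 897th. By contrast, the peak in the intron of Vmp1 (chr11:86417359-86417526), an autophagy gene, was 1st by untreated score and 947th by treated score. The peak upstream of Id3 (chr4:135673011-135673320) stood high in both, 8th and 9th. Id3 encodes a helix-loop-helix inhibitor of transcription factors.

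The peaks overlapped closely once they overlapped at all. Of the shared peaks, 1381 (96.2%) lay wholly inside the untreated peak, and 3 were covered by it over less than 50% of their length. The treated peaks were narrower, with a median width of 199.5 bp against 524 bp for the untreated peaks they lay in, and the centres differed by a median of 37 bp. The 3 members with the least overlap shared 10, 19 and 32 bp with an untreated peak, in an intron near Dusp11, between genes near Gm12602 and in an intron near Slc19a3. The 3 treated peaks that came nearest without overlap lay 65, 73 and 111 bp away, at the start of C130039O16Rik, in an intron near Slc2a1 and in a coding exon of Vgll3. On the ATF4 side, the closest members were 2, 7 and 11 bp from an ATF4 peak, near the starts of Ppm1f and Ptgs2 and in an intron near Nfe2l2. The peaks left out with the least overlap shared 1, 6 and 8 bp with an ATF4 peak, at the starts of Pdss1, Bud31 and Bms1. In all, 62 shared peaks had an ATF4 peak within 1 kb, so the rule separates overlap from no overlap and not proximity.

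Scores are the authors' and rank peaks only within a list. The sources used here do not state their scale, and being listed in both states is itself tied to score, so score differences between lists are a description. Shared peaks had a median score of 9.94 in the treated list (lowest 2.49, highest 103), and treated peaks with neither an untreated CEBPB peak nor an ATF4 peak, called treated-only peaks here (n = 5956), had a median of 5.19. In the untreated list the shared peaks had a median of 136 (lowest 50.1, highest 1334) and the untreated-only peaks without ATF4 (n = 5710) a median of 77.1. Across the 1436 peaks the 2 scores were weakly related, with a Spearman coefficient of 0.29, given as a description since all points come from the same pair of libraries. In the 25% of treated-list peaks with the highest scores, 45.9% were shared peaks, against 2.75% in the 25% with the lowest.

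**Figure D1:**
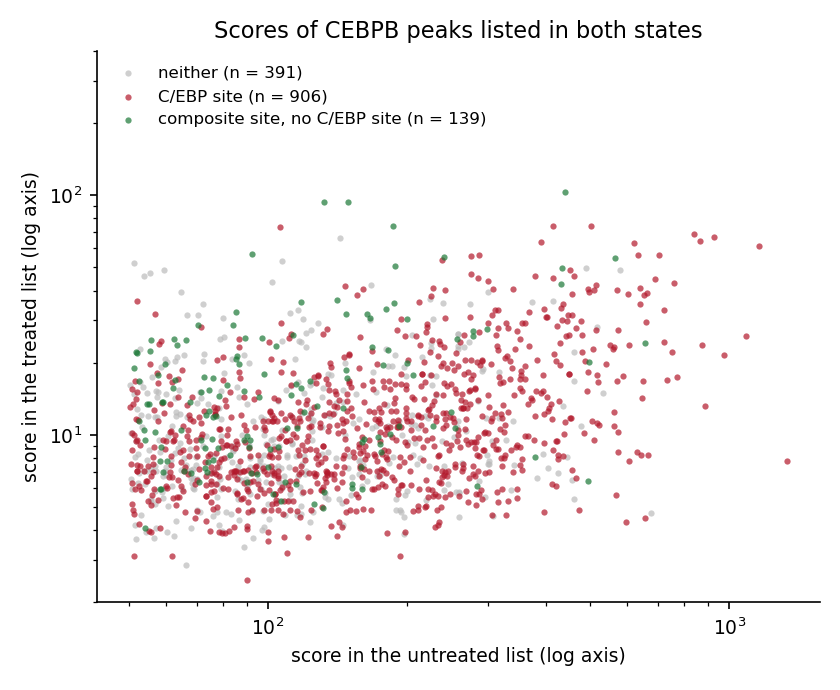
Score of each of the 1436 shared peaks in the untreated list (x axis) and the treated list (y axis), both on log axes and in the authors' units, coloured by the words found within 100 bp of the centre. The 139 peaks with the composite word and no C/EBP word had a median treated score of 13.7 against 9.94 for all shared peaks. Their median untreated score was 96.9 against 136. They made up 10 of the 50 highest treated scores and 2 of the 50 highest untreated scores.

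Most shared peaks lay away from gene starts. In the GENCODE annotation of the mm9 build, 159 (11.1%, 95% Wilson interval 9.55 to 12.8%) were within 1 kb of a gene start, 564 (39.3%) were in introns and 675 (47.0%) were between genes. Coding exons held 14, untranslated regions 12 and other exons 12. Gene starts held 4.82% of treated-only peaks and 8.20% of untreated-only peaks, both below the interval for the shared peaks. Without the 62 shared peaks that had an ATF4 peak within 1 kb, however, 7.79% of the shared peaks were at gene starts. The other lists were not trimmed in this way, so that share is not set against theirs. The 100 peaks left out for their ATF4 overlap were placed differently, with 72 at gene starts. The median distance from a shared peak to the nearest start was 26.0 kb, 414 had a start within 10 kb, and 295 were more than 100 kb from any start.

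The C/EBP word was common in shared peaks and concentrated at their centres. It was found in 906 of 1436 (63.1%, interval 60.6 to 65.5%), against 8.70% of windows of the same 200 bp placed 2 kb to either side. Untreated-only peaks held it almost as often, in 60.6%, with their flanks at 8.62%. Treated-only peaks held it in 11.1%, close to the 9.38% of their own flanks. Matches were counted by strand, so each palindrome TTGCGCAA counts on both strands. Of the 1176 C/EBP matches so counted in shared peaks, 42.7% were within 20 bp of the centre, and the median distance was 24 bp. Among single forms, TTGCACAA was the most frequent, in 315 shared peaks (21.9%, flanks 0.557%). The palindrome TTGCGCAA was found in 125 (8.70%), in none of 2872 flanking windows (up to 0.104% at 3 counts), in 2.56% of untreated-only and in 0.722% of treated-only peaks.

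Shared and treated-only peaks differed in the C/EBP word in every 25% class of the treated score. Within the 25% of treated-list peaks with the highest scores, 64.4% of 902 shared and 16.8% of 774 treated-only peaks held it. Within the 25% with the lowest scores, the shares were 59.3% of 54 (interval 46.0 to 71.3%) and 9.06% of 1865. The share among shared peaks thus lay between 59.3% and 64.4% in every score class, whereas among treated-only peaks it was at most 16.8%.

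The composite word was found in a smaller set of shared peaks. It was found in 183 (12.7%, interval 11.1 to 14.6%), against 0.522% of flanking windows, 6.35% of treated-only peaks and 4.76% of untreated-only peaks, although none of the shared peaks overlapped an ATF4 peak. Within classes of the treated score the order was not constant. In the 25% of treated-list peaks with the highest scores 15.5% of shared and 18.5% of treated-only peaks held it, and in the 25% with the lowest 5.56% and 2.36% did. Of the 100 peaks left out for ATF4 overlap, 31 held it. The related word with a CpG, TTGCGTCA, was found in 44 shared peaks (3.06%, flanks 0.104%). In 139 shared peaks the composite word stood without a C/EBP word. These had a median treated score of 13.7 and a median untreated score of 96.9, and 114 of the 139 (82.0%, interval 74.8 to 87.5%) ranked higher in the treated than in the untreated list. Of the 44 peaks with both words, 22 (50%, interval 35.8 to 64.2%) ranked higher in the treated list. The share of 82.0% thus holds for the composite word without a C/EBP word and not for the composite word as such. Of the 862 peaks with a C/EBP word and no composite word, 403 (46.8%) did so. So did 58.8% of the 34 with TTGCGTCA and neither word, 64.0% of the 100 with only the shorter core TTGCAA and 65.4% of the 257 with no such word at all. Among the 50 shared peaks with the highest treated scores 13 held the composite word, and among the 50 with the highest untreated scores 3 did, with 12 peaks common to both sets. In 257 shared peaks (17.9%) no C/EBP word, composite word, TTGCGTCA or TTGCAA was found, against 77.4% of treated-only and 27.6% of untreated-only peaks.

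Words of other factor families were found less centrally. The AP-1 word TGANTCA, bound by FOS and JUN dimers, was found in 316 shared peaks (22.0%, flanks 6.44%), in 16.95% of untreated-only peaks and in 9.45% of treated-only peaks. Only 20.6% of its matches were within 20 bp of the centre, at a median distance of 43.5 bp. The TEAD word GGAATG was found in 18.7% (flanks 10.1%), at a median of 51.5 bp. A match is a description of the letters present and not of a bound factor.

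Methylation was measured in untreated cells only and was not used to choose the peaks. Shared peaks were low to intermediate: the median over the 1320 with at least 1 listed CpG was 23.5% (interval 22.3 to 25.4%), with 688 (52.1%) under 25%, 601 (45.5%) from 25 to 75% and 31 (2.35%) over 75%. The other 116 held no listed CpG, and the median peak held 6 listed CpG cytosines. The median over all 39464349 CpG cytosines used was 75%. In windows of 200 bp at the centre, the median was 23% for shared peaks, 34% for untreated-only peaks and 70.2% for treated-only peaks, and 41.4% of treated-only peaks exceeded 75%. Those 3 medians have intervals that do not overlap. The peaks left out for ATF4 overlap were almost free of methylation, with a median of 0.133%.

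**Figure D2:**
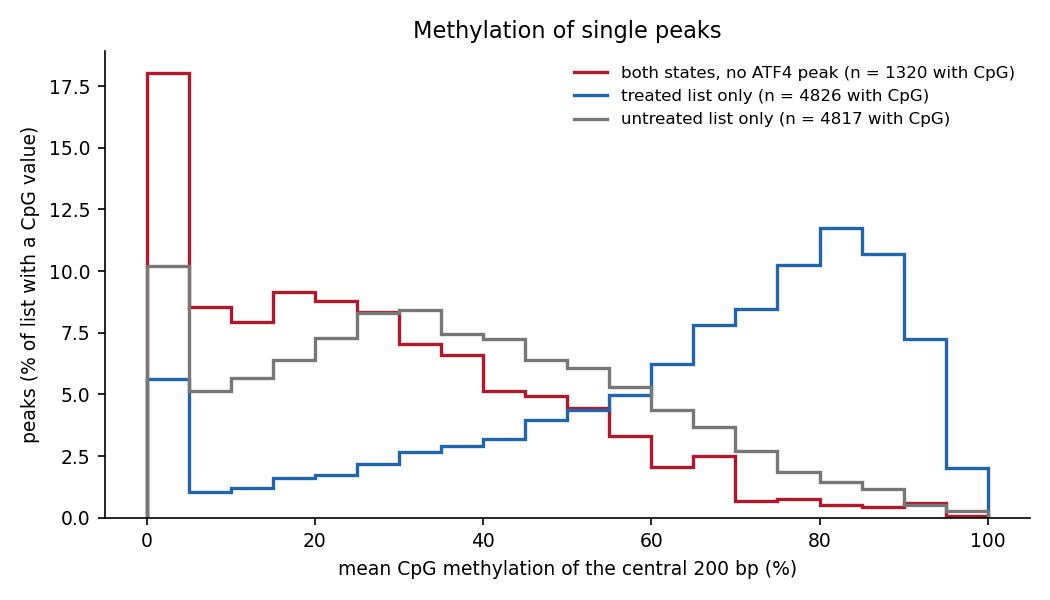
Share of peaks (y axis, % of the peaks with a CpG value) by mean CpG methylation of the central 200 bp in untreated cells (x axis, 5-point bins), for shared peaks, treated-list-only and untreated-list-only peaks. Shared peaks pile up near 0 and thin out above 60%, and treated-only peaks rise towards 80 to 85%.

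Position within the gene went with methylation. The 156 shared peaks at gene starts that had a CpG value had a median of 0.652%, those in introns 26.4% and those between genes 27.0%. Outside gene starts the order of the lists was the same, at 26.3% for shared, 35.7% for untreated-only and 71.3% for treated-only peaks in the central 200 bp. The low level was local. Mean methylation was 21.3% within 100 bp of the centre of shared peaks and 66.1% at 2 to 3 kb, a fall of 44.8 percentage points, against 33.8 points at untreated-only and 9.38 points at treated-only peaks. Since the values come from untreated cells, they describe the DNA without treatment and no change with it.

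**Figure D3:**
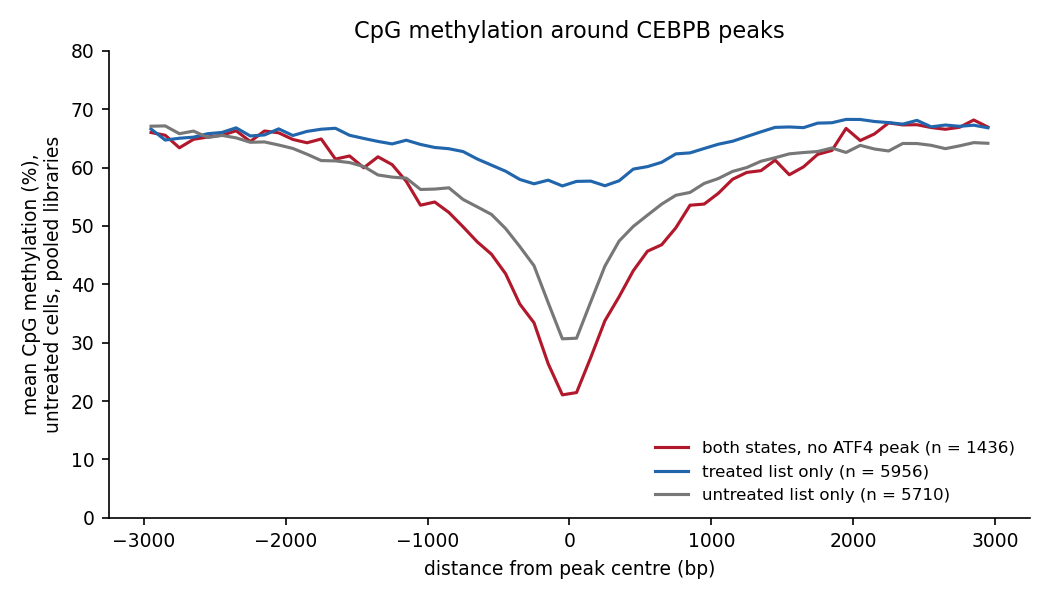
Mean CpG methylation in untreated cells (y axis, %) by distance from the peak centre (x axis, bp, 100-bp bins) for the 3 lists without ATF4 peaks. The line for shared peaks drops from about 66.1% at 2 to 3 kb to 21.3% within 100 bp of the centre, below the other lines.

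Within 25% classes of the treated score, shared and treated-only peaks still differed in methylation, though scores were not matched inside a class. In the 25% of treated-list peaks with the highest scores, the median of the central 200 bp was 20.7% for shared and 49.7% for treated-only peaks. In the 25% with the lowest scores it was 33.5% and 75.5%. Shared peaks were also somewhat richer in CpG, with a median of 3 CpG in 200 bp against 2 in both other lists, and their median GC content of 47.5% lay between 43.5% in untreated-only and 49% in treated-only peaks. Whether these features play a part in the methylation difference was not tested.

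The CpG inside the C/EBP word was more methylated than the rest of the same peak. In shared peaks the central CpG of TTGCGCAA had a median of 54% over 125 sites (quartiles 19 and 80.5%), against 88% over the 2052 sites of the word in the genome with a value, 89% at 43 sites in treated-only and 76.8% at 146 sites in untreated-only peaks. In the 116 shared peaks with another CpG in the central 200 bp, the site stood at a median of 50.5% and the other CpGs at 25.1%. Within peaks the difference was 15.9 percentage points (interval 11 to 21.3), and the site was the higher in 89 of 116. The forms TTGCGTAA and TTGCGAAA gave differences of 14.1 points (higher in 67 of 82 peaks) and 19.3 points (50 of 58). At TTGCGTCA the difference was 1.75 points (interval 0 to 9.25; higher in 22 of 39). Untreated-only and treated-only peaks gave differences of 16.5 and 15.3 points for the palindrome, so the excess over neighbouring CpGs was of like size in all 3 lists.

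**Figure D4:**
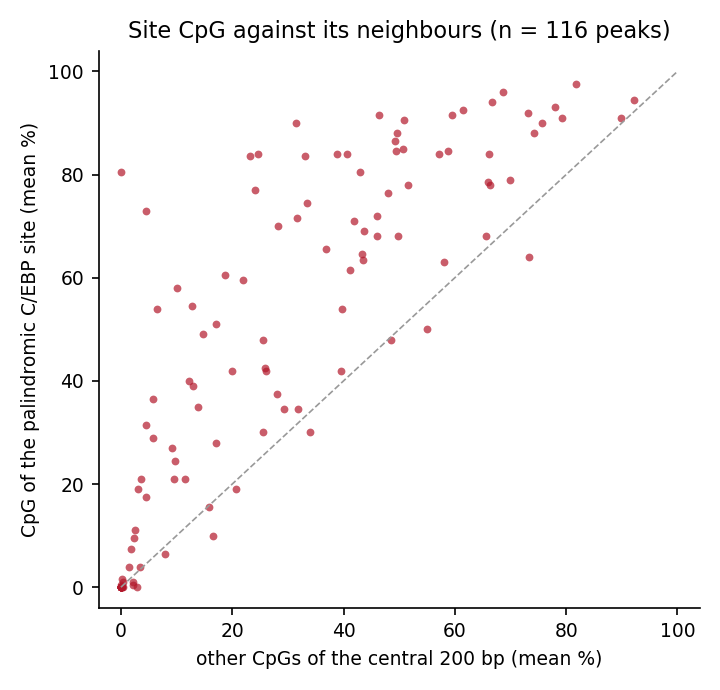
Mean methylation of the CpG in the palindromic C/EBP site (y axis, %) against the mean of the other CpGs in the central 200 bp (x axis, %) in untreated cells, 1 point for each of 116 shared peaks, with the line of equality dashed. In 89 peaks the point lies above the line.

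The palindromes printed above were among the less methylated. The one upstream of Ptgs2 had a site value of 1%, and the 8 CpG cytosines of its 80 bases averaged 0.25%. In the Htra1 intron the palindrome stood at 27% and its stretch averaged 17%. Over all 125 sites, 39 exceeded 75%. Of the 31 shared peaks over 75%, 14 (45.2%) held TTGCGCAA, against 49 of 688 (7.12%) of those under 25%. Since the word brings a CpG of its own into peaks with a median of 2 CpG per 200 bp, it counts towards the peak's value there.

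RNA was compared between 1 untreated and 1 thapsigargin library as log2(FPKM + 1), a scale that understates changes of low genes. FPKM is the authors' fragment count scaled to transcript length and library size. Over the 11755 genes with at least 1 FPKM in either library, 5.68% were higher by 1 or more on this scale and 28.3% were lower. Of 469 genes with a start within 10 kb of a shared peak, 388 reached 1 FPKM (82.7%, against 57.9% of all genes matched). Among these 388, 42 (10.8%, interval 8.11 to 14.3%) were higher and 82 (21.1%, interval 17.4 to 25.5%) lower, and the median change was -0.40 (all genes -0.53). The deposited confidence bounds of the 2 libraries did not overlap for 356 of the 388, but these bounds hold no variation between cultures. Genes near treated-only peaks and no shared peak were higher in 5.04% of 794, and genes near untreated-only peaks and no shared peak in 7.56% of 1151. Within 50 kb of a shared peak, 110 of 1308 genes (8.41%) were higher and 378 (28.9%) lower, the latter close to the share over all genes.

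The surplus of decreases over all genes went with the number of exon junctions per kilobase. In the 20% of genes with the fewest junctions per kilobase the median change was -0.12, and in the 20% with the most it was -1.12. In the first of these classes 25.3% of 91 genes near shared peaks were higher, against 11.3% of all 2330. In the next class up, 6.67% of 75 and 6.74% of all genes were higher, so there was no surplus there. In the 3rd class 9.21% of 76 were higher, against 5.28% of 2329, and in the 4th 3.80% of 79, against 2.96% of 2330. In the last, 3.28% of 61 were higher, against 1.50% of 2330. Of the 42 higher genes, 23 were thus in the class with the fewest junctions. Set against genes of like junction density, 65 of 382 genes near shared peaks were higher and 24 lower, where 11.96% and 9.98% of all genes were, and the median became 0.09. Centred on the median of genes at 5 FPKM or more in both libraries, 66 were higher and 36 lower, where 10.8% and 15.4% of all genes were, with a median of 0.01. Higher genes were therefore 33.9% of those past the limit as deposited, 64.7% after centring and 73.0% after the junction adjustment. On the centred and the adjusted scales 17.0% of the genes near shared peaks were higher (intervals 13.6 to 21.1% in both), so on each of the 3 scales the share exceeded that over all genes. Genes near untreated-only peaks and no shared peak were higher in 13.6% (interval 11.7 to 15.7%) centred and 14.2% (12.3 to 16.4%) adjusted. Their interval as deposited was 6.17 to 9.23%. On all 3 scales their intervals overlapped those of genes near shared peaks, so the surplus is not particular to shared peaks.

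**Figure D5:**
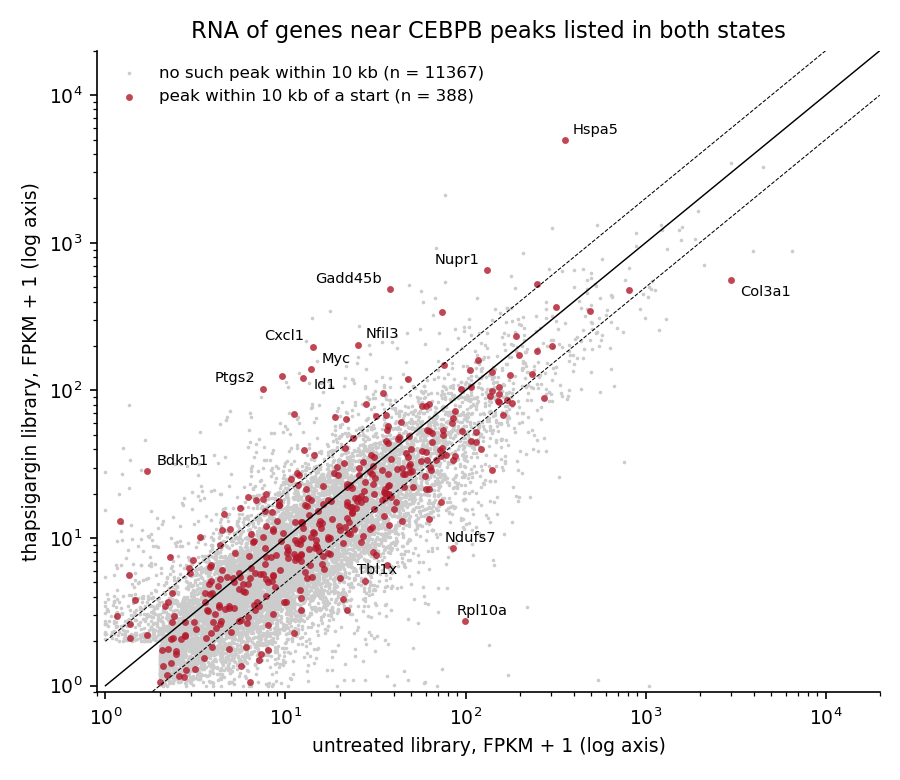
RNA level in the untreated library (x axis) and the thapsigargin library (y axis), as FPKM + 1 on log axes, for the 11755 expressed genes, with the 388 that have a start within 10 kb of a shared peak in red. The solid line is equality and the dashed lines are a change of 1 on the log2 scale, and 42 red points lie above the upper dashed line and 82 below the lower.

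Cytokine, chemokine and prostaglandin genes held several of the largest increases. Of 25 listed, 12 had a shared peak within 50 kb and 4 within 10 kb, and 15 had an untreated-only peak within 50 kb. For this and the later lists, the count over all genes was 1680 of 20298 matched genes with a shared peak within 50 kb. Among expressed genes it was 1308 of 11755. Whether any list exceeds these shares was not tested. Of the 12 listed genes with a shared peak, all 11 that were expressed were higher. Over the whole list 21 of 23 expressed genes were higher, so the direction was that of the list and is not particular to the genes with a peak. Ptgs2, which encodes cyclooxygenase 2, went from 6.53 to 102 FPKM, a log2 change of 3.77. Its start lay 0.149 kb from a shared peak (chr1:151946969-151947240) with 1 C/EBP word, the palindrome printed above. That peak had a methylation of 0.583%, and an ATF4 peak lay 7 bp away from it. Cxcl1, a neutrophil chemokine, went from 13.2 to 197 FPKM (log2 change 3.81), with a shared peak 9.42 kb upstream. The same peak was 22.0 kb upstream of Cxcl2, at 0.194 and 18.9 FPKM. Ccl2, which attracts monocytes, went from 76.0 to 2118 FPKM (4.78), and its shared peak (chr11:81820293-81820573) stood 28.6 kb upstream, with 1 C/EBP word, 2.92% methylation and rank 33 by treated score. Ereg, a ligand of the EGF receptor, went from 0.586 to 27.8 FPKM (4.18). Tnfaip3, Socs3, Tnfaip6, Lif, Ccl7 and Ptges were the others, with changes from 2.62 for Tnfaip3 down to 1.05 for Ptges. Csf3 stayed under 1 FPKM in both libraries.

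Genes with several shared peaks nearby were few. Of 11 expressed genes with 3 within 50 kb, 5 formed a run on chromosome 5, Cxcl9, Cxcl10, Art3, Naaa and Sdad1, which share the same peaks. Cxcl10, an interferon-responsive chemokine, went from 1.44 to 30.5 FPKM (3.69) and Cxcl9 from 0.154 to 1.98 FPKM. Naaa and Art3 in the same run had changes of -0.70 and -1.14. Elsewhere Ier5 stood at 0.51, Dram1 at 0.57 and Dlc1 at 0.59, and Svil and Rbms1 at -1.93 and -1.40.

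Transcription factor genes made up a further set. Of 24 listed bZIP genes in the tables, 4 had a shared peak within 50 kb: Maff, Nfil3, Fosl2 and Atf5. Of these 4, 3 were higher by 1 or more. Over the whole list 11 of 20 expressed genes were higher and 1 was lower, so increases were not particular to genes with a shared peak. Maff, a small MAF protein that partners NRF and BACH factors, went from 8.51 to 125 FPKM (3.73), with a shared peak 0.905 kb upstream at 42.7% methylation. Nfil3, a bZIP repressor of circadian and immune genes, went from 24.2 to 203 FPKM (3.02), and its intron held a shared peak (chr13:53072120-53072399) with both words. Fosl2, an AP-1 subunit, went from 33.7 to 94.5 FPKM (1.46), and Atf5 from 249.9 to 183 FPKM (-0.44). No shared peak was within 50 kb of a start of Cebpb, Cebpg, Ddit3, Atf4 or Atf3. Cebpb itself went from 33.4 to 211 FPKM (2.62), with 20.7% of its exonic bases also annotated to Tmem189, whose reads cannot be told apart there. Ddit3, which encodes CHOP, went from 82.9 to 735 FPKM (3.13), and Atf4 from 207.9 to 849 FPKM (2.02). Cebpd has no coding start in the annotation used and was not placed.

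Of 24 dermal mesenchyme transcription factor genes in the tables, 6 had a shared peak within 50 kb: 3 were higher, Id3, Id1 and Meox1, and 1 was lower, Tcf7l2, at -1.63. Over the whole list 6 of 23 expressed genes were higher and 4 lower. Meox2 and Tead1 had changes of -0.56 and -0.41. Id1, a relative of Id3, went from 11.5 to 120 FPKM (3.27), with a shared peak 5.58 kb from its start that held C/EBP and composite words. Id3 went from 67.3 to 921 FPKM (3.75), 26.2 kb from the shared peak printed above. Gadd45b, a stress-induced regulator of growth arrest, went from 37.0 to 486 FPKM (3.68), with a shared peak 3.79 kb away. Of 25 immediate early genes, 4 had a shared peak within 50 kb: Myc, Ier3, Ier2 and Ier5, the first 3 of them higher by 1 or more. Over the whole list 16 of 25 were higher. Myc was listed at 12.9 and 138 FPKM, but its treated value carries a failed status and its bounds reach 0, so its change is uncertain. The Myc peak was 6th by untreated score and 485th by treated score. Bdkrb1, the receptor for kinin fragments made in inflammation, had the largest increase within 10 kb on the log2(FPKM + 1) scale as deposited, from 0.692 to 27.4 FPKM (4.07), with a shared peak 5.91 kb upstream at 46.2% methylation. After the junction adjustment it stood at 4.07, below Cxcl1 and Hspa5, both at 4.24, and Gadd45b at 4.08.

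Among genes of the ER stress response, 9 of 23 listed targets of ATF4 and CHOP had a shared peak within 50 kb and 7 had one within 10 kb. Of these 9, 4 were higher: Nupr1, Gdf15, Slc7a1 and Slc7a11. Over the whole list 10 of 23 were higher. Nupr1, a stress-induced chromatin protein, went from 131 to 655 FPKM (2.31), with a shared peak 0.109 kb from its start that held the composite word and 4.38% methylation. Gdf15, a stress cytokine, went from 3.57 to 13.6 FPKM (1.68), and its shared peak held TTGCGTCA and lay 738 bp from an ATF4 peak. Sesn2, beside the 3rd-ranked treated peak, was at 22.3 and 21.0 FPKM (-0.08). Of 20 chaperone and ER-associated degradation genes 4 had a shared peak within 50 kb, and 2 of these were higher, where 13 of 20 were over the whole list. Hspa5, which encodes the chaperone BiP, went from 354 to 4978 FPKM (3.81). The shared peak 1.86 kb upstream of it (chr2:34625611-34625902) held the composite word in 2 places, with 69.5% methylation over 2 cytosines. The start nearest to that peak was that of Gapvd1, with the peak 0.547 kb upstream. Xbp1, the factor spliced by IRE1 in ER stress, went from 72.9 to 337 FPKM (2.19), and its start held a peak with 0% methylation. Edem1 and Atf6 had changes of 0.03 and 0.51.

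Matrix genes near shared peaks were mostly lower as deposited. Of 36 listed, 10 had a shared peak within 50 kb, 7 of these were lower and 1, Ctgf, was higher, at 145 and 356 FPKM (1.29). Over the whole list 24 of 36 were lower. Col3a1, a fibrillar collagen of skin, went from 3000 to 562 FPKM (-2.41), and its intron held a shared peak (chr1:45375198-45375399) with 2 C/EBP words and 15.5% methylation. Col1a1 went from 6473 to 884 FPKM (-2.87), with a shared peak 42.9 kb from its start. Set against genes of like junction density, these 2 changes became -0.51 and -0.96, and of the 7 lower genes only 1 still passed the limit, Fbln1. Fbln1, a basement membrane glycoprotein, had changes of -2.39 as deposited and -1.59 adjusted. Col5a1, Col6a2, Fbln2 and Mmp2 stood between -0.68 and 0.12 after adjustment. Of 22 listed adipogenic and steroid-responsive genes, 2 had a shared peak within 50 kb. These were Angptl4 and Klf15, with changes of 0.77 and -0.34, neither past the limit. Over that list 1 of 20 expressed genes was higher and 5 were lower. Pparg, Cebpa and Fabp4 had no shared peak within 50 kb.

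As deposited, the largest decreases within 10 kb of a shared peak were those of Rpl10a, Ndufs7, Odz3, Nkain4, Ston1, Slc44a1, Tbl1x and Col3a1. Rpl10a, a ribosomal protein gene, was at 98.4 and 1.74 FPKM, but 58.8% of its transcript windows have near-identical copies elsewhere, so its value is uncertain. Ndufs7, a subunit of respiratory complex I, was at 83.9 and 7.58 FPKM (-3.31 as deposited and -1.40 adjusted), and its shared peak, at the start, held none of the C/EBP words. Odz3, a teneurin adhesion protein, was at 21.0 and 2.24 FPKM (-2.76 and -2.42). Palld, an actin-bundling protein with a shared peak in its gene 43.9 kb from a start, was at 34.7 and 3.63 FPKM (-2.95 and -2.24). It belongs to a list of 24 contractile, adhesion and cytoskeleton genes, of which 6 had a shared peak within 50 kb. Their median change was 0.47. Of these 6, 1 was lower, Palld, and 1 was higher, Ankrd1 (1.35), with a shared peak 0.247 kb upstream. Zyx, Tagln, Tpm4 and Cnn3 stood between 0.22 and 0.65. Over the whole list 2 were higher and 8 lower.

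Changes of genes nearest to the peaks with the highest scores differed in size and direction, from 3.75 for Id3, given above, to -1.63 for Wdr67. Wdr67, 5.32 kb from the peak with the highest treated score (chr15:57738281-57738595, 0% methylation), went from 6.98 to 1.58 FPKM (-1.63, and -0.54 after the junction adjustment). Nfe2l1 was at 74.8 and 149 FPKM (0.98, and 1.15 adjusted), and Irf2bp2, which shares 22.9% of its exonic bases with Gm16983, at 28.7 and 35.6 FPKM (0.30 and 0.31). Htra1, a secreted protease, was at 234 and 129 FPKM (-0.86 and -0.31). Of the other genes nearest the top untreated peaks, Btbd19 had changes of 0.45 and 0.89 and Emilin2 of 0.29 and 0.58. Tubd1 had -1.20 and -0.46. Nt5c2, which shares 10.2% of its exonic bases with Ina, had -0.47 and 0.61. Olfr266 was listed at 0 in both libraries.

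The culture carried the markers of its label and of leukocytes. All 13 fibroblast markers were expressed, with a summed level of 13520 FPKM in untreated and 3794 FPKM in treated cells, of which Col1a1 gave 6473 FPKM before treatment. The sums in this paragraph are as deposited. Set against genes of like junction density, the changes of Col1a1 and Col1a2 went from -2.87 and -2.16 to -0.96 and -0.25, while Lum stayed at -2.50. The 10 macrophage and leukocyte markers in the tables were all above 1 FPKM in untreated cells and summed to 1348 and 1438 FPKM. Lyz2 alone gave 880 and 951 FPKM of these sums. Keratinocyte markers summed to 32.6 and 2.26 FPKM, with 3 of 12 under 1 FPKM before treatment. Endothelial markers summed to 25.02 and 11.3 FPKM. Before treatment Eng gave 18.3 FPKM of that sum, and 7 of the 9 endothelial markers were under 1 FPKM. Melanocyte and Schwann cell markers summed to 60.4 and 14.1 FPKM, with Tyr listed at 0 in both libraries. No keratinocyte marker had a shared peak within 50 kb, and 4 macrophage markers did, Cd14, Fcer1g, Csf1r and Cd68. Cd14, the lipopolysaccharide co-receptor, went from 14.8 to 111 FPKM (2.83), and Cd68, a lysosomal protein of macrophages, was at -0.27. Over the list 2 markers were higher and 2 lower, among the latter Cd74, the invariant chain of MHC class II, at -4.44. The part that leukocytes in the culture play in the peaks, the methylation or the cytokine RNA was not tested, and fewer cells of a type cannot be told apart from less RNA per cell.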

How the data were processed

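The members and gene lists were chosen with earlier results of these data known. The submitters' processing notes name the build mm9 and the tools CASAVA 1.7, BWA and SAMtools for ChIP-seq, CASAVA 1.8.2 and Bowtie for RNA-seq, and CASAVA 1.8 and Novoalign for bisulfite libraries. The sources used here name no peak caller, control library or score threshold. The deposited peak lists give the authors' score per peak, of unstated scale. The deposited methylation file gives a percent per CpG cytosine over both bisulfite libraries combined, without coverage, so depth is unknown; 83035 heterozygous entries were left out. The deposited RNA tables give the authors' FPKM with confidence bounds, without counts, so depth is unknown there too.

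Peaks were overlapped by at least 1 bp and placed on GENCODE vM1 starts of coding and lincRNA genes. A peak's methylation is the mean over its listed CpG cytosines. Words were searched in 200 bp at the centre on both strands. Of 23583 gene entries shared by the tables, 20298 had 1 locus and 1 matching annotated gene. RNA change is log2(FPKM + 1) with a minimum of 1 FPKM in either library; copies of transcripts were sought with minimap2 2.31-r1302. Shares carry 95% Wilson intervals and medians order-statistic intervals (Python 3.11.15, scipy 1.17.1, pandas 2.3.3, pysam 0.24.0). The code was tested on simulated data. Genes named are the 12 largest increases and 8 largest decreases within 10 kb, up to 3 per list within 50 kb, genes nearest the 8 and 5 top-scoring peaks, and 6 fixed factors; other list members named, the genes with 3 peaks within 50 kb and Vmp1 and Ccdc109a, hosts of top peaks, were singled out after their values were seen. Comparisons between conditions have 1 library each and were not tested.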

Additional observations from a re-analysis of the deposited data

How the results depend on the processing

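Of 63 recomputed values, 35 stayed within the spread set for them, 26 moved and 2 turned sign. Taking only peaks in the upper 50% of scores of every list left 949 members, with a median methylation of 20.3%, 58.0% under 25%, a C/EBP word in 68.4%, and 27 higher and 52 lower genes. Counting starts within 5 kb put 19.5% of members at gene starts, and leaving out members with an ATF4 peak within 1 kb, a setting added after seeing the data, put 7.79% there. Median methylation was 21.5% within 50 bp of the centre, 32.7% over the untreated peak and 26.6% without gene starts (added after seeing the data). The share with low methylation was 56.7% within 50 bp, 47.0% without gene starts and 43.1% with a limit of 20%. The C/EBP word share was 51.5% for the palindrome with up to 1 mismatch (6.80% of treated-only peaks) and 51.8% within 50 bp (6.50%). Higher and lower genes were 110 and 378 within 50 kb, 82 and 232 for the nearest start, 66 and 36 after centring, and 65 and 24 after the junction adjustment, which was added after seeing the data. The median RNA change was -0.50 within 50 kb and -0.27 with no filter on low values, and turned positive after centring (0.0060) and after the junction adjustment (0.087).

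No paired analysis was possible because each ChIP and RNA condition had 1 library and the bisulfite values were combined by the authors. For the same reason no replicate was left out. Coverage behind each CpG and counts behind each FPKM are unknown, so small differences in methylation of single peaks, most of them over few cytosines, cannot be weighed.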
